A study of Mus musculus with 12 samples.

Results

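The 7 genes described here encode the core enzymes of the methionine cycle and were taken from a table of 52550 genes by their symbols. They are *Mat1a*, *Mat2a* and *Mat2b*, the subunits of methionine adenosyltransferase, and *Gnmt*, *Ahcy*, *Mtr* and *Cbs*, the enzymes that use its product or handle what is left of it. The set was chosen by the measured level of *Mat1a*, which rose mainly in *Adm*+/- mice after lipopolysaccharide (LPS), so the values of *Mat1a* are given as a description without a test. All 7 genes passed the filter on low counts and were among the 15885 protein-coding genes tested.

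Whole lungs of neonatal mice were profiled by bulk RNA sequencing after rRNA depletion, with 12 libraries in 4 groups of 3. The study asked how the lung response to LPS, a component of the outer membrane of bacteria, differs in mice short of adrenomedullin, a peptide hormone that acts on blood vessels. WT mice (*Adm*+/+) and haplodeficient mice (*Adm*+/-), in which 1 allele of *Adm* is inactive throughout the body, were both of the C57Bl/6J strain. Each received intraperitoneal LPS from *Escherichia coli* O55:B5 at 6 mg/kg, or the same volume of PBS, once daily for 3 days, and lungs were taken on postnatal day 5, 6 h after the last dose. The groups were WT PBS (libraries 3, 4 and 5), WT LPS (libraries 9, 10 and 11), *Adm*+/- PBS (libraries 6, 7 and 8) and *Adm*+/- LPS (libraries 1, 2 and 12). All groups were injected, and no group lacked adrenomedullin altogether.

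Methionine adenosyltransferase joins methionine to ATP and yields S-adenosylmethionine (SAM), the methyl donor for most methylation of DNA, RNA, protein and small molecules. Each methyl transfer leaves S-adenosylhomocysteine (SAH), which is split to homocysteine. Homocysteine is either methylated back to methionine or drawn off by transsulfuration towards cysteine, glutathione and hydrogen sulfide. *Mat1a* is known as the catalytic subunit of adult liver, and *Mat2a*, with its regulatory partner *Mat2b*, as that of other tissues and of dividing cells.

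The libraries held between 22382535 and 38062873 counts (median 28494877). Protein-coding genes held 77.8% of the counts in WT PBS library 5 and 80.1% in *Adm*+/- PBS library 6, against 84.3% to 87.6% in the others. The *Adm* transcript itself was low, at 3.96 to 7.09 CPM (counts scaled to library size) in WT PBS, 4.46 to 8.15 in WT LPS, 2.87 to 4.58 in *Adm*+/- PBS and 3.74 to 6.28 in *Adm*+/- LPS, so the genotypes overlapped under both treatments. The lung label fitted its markers, since the summed level of 12 type II pneumocyte genes was 15000 to 19600 CPM in every group. Skeletal muscle genes stood at 757 to 2000 summed CPM in WT LPS and at no more than 57 elsewhere, and 12 neutrophil genes rose from 40.8 to 186 summed CPM in the PBS groups to 1610 to 2970 in the LPS groups.

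The catalytic genes *Mat1a* and *Mat2a* are related in sequence, so the question of whether a read from one could be counted on the other comes before their values. Their coding sequences (mm10, transcripts of Gencode M21) were identical at 74.1% of 1183 aligned bases, and the longest run without a difference was 15 bases. The 100-base stretch where they were most alike is shown 5′ to 3′ in the sense of the gene, with the 14 differing bases in capitals. It runs over 2 exons in both genes, at chr14:41114258-41114750 on the + strand for *Mat1a* and chr6:72436313-72436488 on the - strand for *Mat2a*.
Mat1a: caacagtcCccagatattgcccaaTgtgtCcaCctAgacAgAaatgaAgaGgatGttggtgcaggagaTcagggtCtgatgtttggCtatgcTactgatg
Mat2a: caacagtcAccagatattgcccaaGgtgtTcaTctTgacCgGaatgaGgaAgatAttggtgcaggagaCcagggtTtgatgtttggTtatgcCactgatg
No 50-base stretch of the *Mat1a* transcript occurred in the transcript of any other gene, and the same held for *Mat2b*, *Gnmt* and *Mtr*.

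*Ahcy* was the opposite case, with 77% of its 50-base stretches present in other genes, chiefly *Gm4737* (74.1%) and the processed pseudogene *Gm9826* (33.9%). The coding sequences of *Ahcy* and *Gm4737* were identical at 99.7% of 1299 bases, with a run of 575 bases without a difference. The 100 bases where they differed most are shown in the same way, with the 2 differing bases in capitals, at chr2:155064898-155065607 on the - strand for *Ahcy*, over 2 exons, and chr16:46154539-46154638 on the - strand for *Gm4737*, in 1 exon.
Ahcy: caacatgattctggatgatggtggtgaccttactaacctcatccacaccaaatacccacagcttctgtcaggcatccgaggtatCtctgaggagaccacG
Gm4737: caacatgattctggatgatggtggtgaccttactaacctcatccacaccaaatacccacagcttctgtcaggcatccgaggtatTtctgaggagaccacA
*Gm4737* held 0 to 4 counts per library and *Gm9826* 6 to 17, against 565 to 1327 for *Ahcy*. Reads that match several genes equally may have been left out of the counting. The level of *Ahcy* is the most exposed to this among the members, and the loss was not measured. For *Mat2a* the shared part was 11.4%, and for *Cbs* 1.54%.

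*Mat1a* (ENSMUSG00000037798, chr14:41105035-41124412, + strand, no overlapping gene) encodes the catalytic subunit known from liver. It was measured at 6.14, 7.52 and 6.67 CPM in WT PBS libraries 3, 4 and 5, and at 11.5, 11.6 and 6.53 CPM in WT LPS libraries 9, 10 and 11. In *Adm*+/- mice it stood at 6.58, 6.05 and 5.96 CPM in PBS libraries 6, 7 and 8, and at 26.2, 28.2 and 20.9 CPM in LPS libraries 1, 2 and 12. Every *Adm*+/- LPS library lay above every other library, WT LPS libraries 9 and 10 lay between, and WT LPS library 11 was inside the range of the PBS libraries. These levels rested on 586 to 701 counts per library in *Adm*+/- LPS and on 108 to 373 in the other groups.

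The fitted log2 fold change of *Mat1a* with LPS was 2.02 (SE 0.21), or 4.05-fold, in *Adm*+/- mice and 0.54 (SE 0.21), or 1.46-fold, in WT mice. The response was larger by 1.48 (SE 0.30) on the log2 scale in *Adm*+/- mice. Between the genotypes, the log2 difference was 1.35 (SE 0.21) under LPS and -0.13 (SE 0.21) under PBS. When each library was left out in turn, the log2 fold change ranged from 1.93 to 2.14 in *Adm*+/- mice and from 0.41 to 0.77 in WT mice, where the extremes came without WT LPS library 9 and without WT LPS library 11. Because *Mat1a* was chosen for this pattern, none of these values carries a test. In whole lung, more RNA per cell and more cells of a type that holds the transcript cannot be told apart, here and for each gene below.

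**Figure D1:**
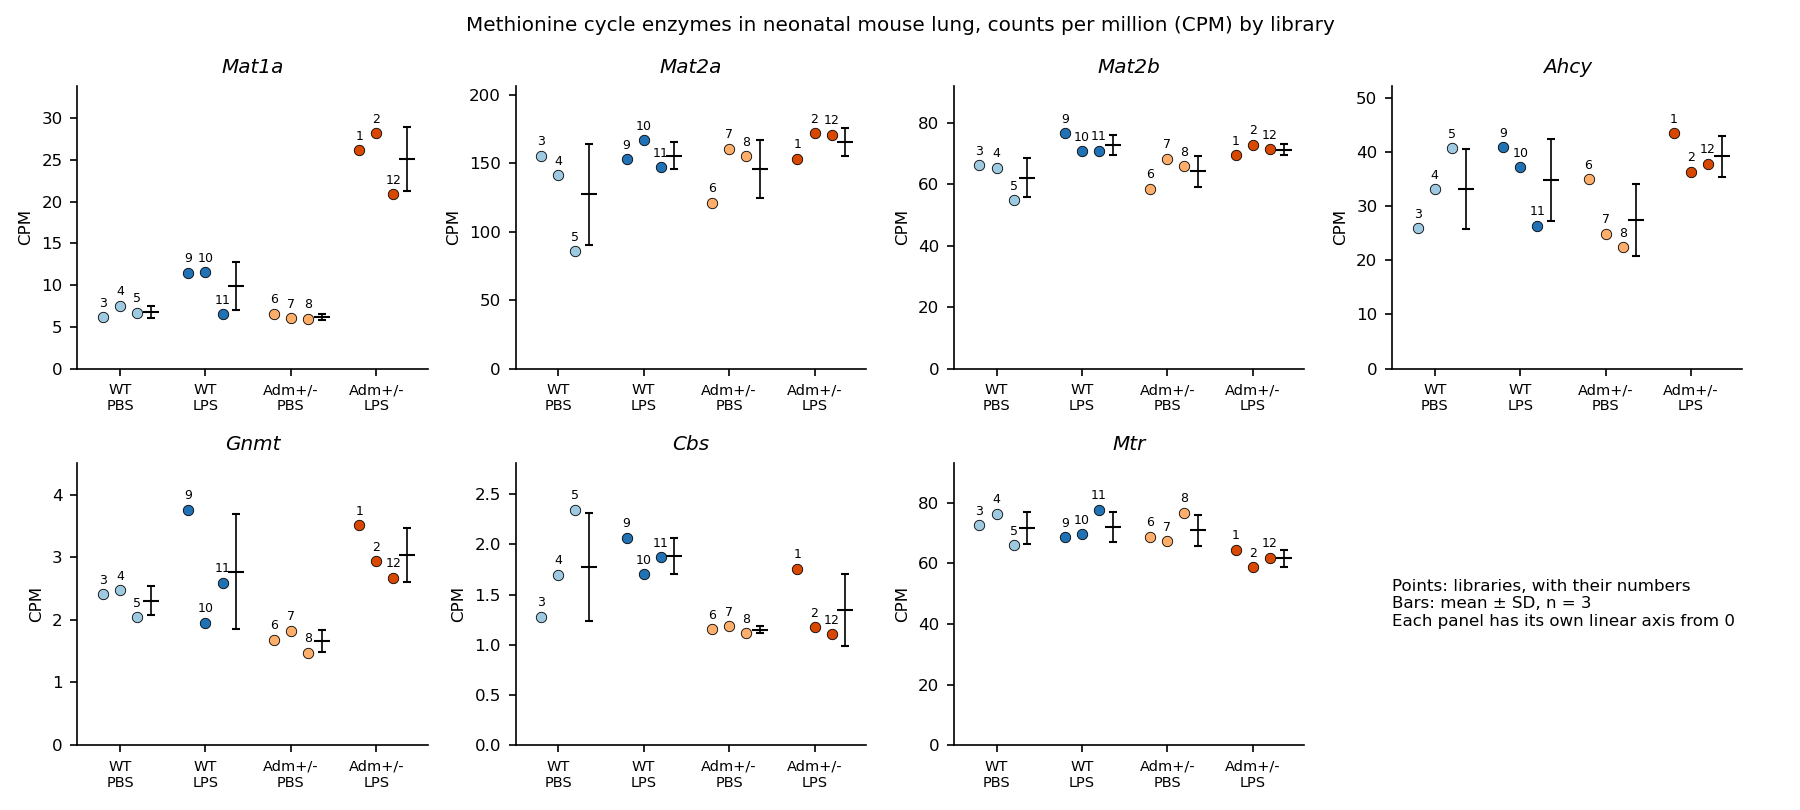
Level of each methionine cycle enzyme in each library, in CPM on a linear axis from 0, by group, with library numbers beside the points and bars for the mean ± SD (n = 3). *Mat1a* sits at 20.9 to 28.2 CPM in *Adm*+/- LPS and at no more than 11.6 CPM in the other 9 libraries, while *Mat2a* and *Mat2b* have their lowest points in WT PBS library 5 and *Adm*+/- PBS library 6.

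Since *Mat1a* is known for its level in liver, the list of 18 hepatocyte genes was read beside it. Their summed level was 19.6 to 32.2 CPM in WT PBS, 32.6 to 97.7 in WT LPS, 18.4 to 47.1 in *Adm*+/- PBS and 37.3 to 44.9 in *Adm*+/- LPS, so its highest value was in WT LPS and not in the group where *Mat1a* was highest. *Alb* (albumin) was at 19.6, 12.6 and 13.5 CPM in *Adm*+/- LPS libraries 1, 2 and 12, against 55.1, 9.11 and 27.1 CPM in WT LPS libraries 9, 10 and 11. *Cps1*, the first enzyme of the urea cycle, was at 0.75 to 0.96 CPM in *Adm*+/- LPS and at 0.58 to 3.30 CPM in WT LPS. In *Adm*+/- mice, 3 of the 12 tested hepatocyte genes were called higher with LPS (*Fgg*, *Cyp2e1* and *Tat*), and in WT mice 4 of 12 (*Fgb*, *Cyp2e1*, *Cps1* and *Tat*), beside 12.8% and 10.5% of all tested genes. Under LPS 0 of the 12 were called between the genotypes by edgeR, beside 2.05% of all tested genes. Of the 12, 11 had a lower fitted level in *Adm*+/- than in WT mice. *Fgg*, a fibrinogen chain, was the exception, with a log2 difference of 1.65 (adjusted p = 0.337, edgeR), and it stood at 1.94, 5.78 and 2.21 CPM in *Adm*+/- LPS libraries 1, 2 and 12, against 1.36, 1.29 and 0.478 CPM in WT LPS libraries 9, 10 and 11. With LPS *Fgg* rose by 3.88 in *Adm*+/- mice (adjusted p = 0.00712, edgeR), beside 1.82 in WT mice (adjusted p = 0.172), on the log2 scale. The part of hepatocyte RNA in the *Mat1a* values was not tested.

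*Mat2a* (ENSMUSG00000053907, chr6:72432799-72439558, - strand) was the main catalytic gene in every library. It was measured at 156, 141 and 85.7 CPM in WT PBS libraries 3, 4 and 5, and at 153, 167 and 147 CPM in WT LPS libraries 9, 10 and 11. The *Adm*+/- levels were 121, 161 and 155 CPM in PBS libraries 6, 7 and 8, and 153, 172 and 171 CPM in LPS libraries 1, 2 and 12. The PBS and LPS libraries overlapped in both genotypes, and the lowest levels were those of WT PBS library 5 and *Adm*+/- PBS library 6, the libraries with a low share of protein-coding counts. The log2 fold change with LPS was 0.29 (95% CI -0.13 to 0.70, adjusted p = 0.288) among WT and 0.18 (95% CI -0.23 to 0.59, adjusted p = 0.494) in *Adm*+/- mice by edgeR's quasi-likelihood test with Benjamini-Hochberg adjustment over all tested genes, the test used throughout. The WT value was 0.065 without WT PBS library 5 (adjusted p = 0.766) and 0.454 without WT PBS library 3, and the *Adm*+/- value was 0.06 without *Adm*+/- PBS library 6 (adjusted p = 0.874, edgeR). *Particl*, annotated on the opposite strand, held 2.72 to 4.57 CPM.

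*Mat2b* (ENSMUSG00000042032, chr11:40679314-40695203, - strand) encodes the regulatory subunit that binds the product of *Mat2a*. Its levels were 66.2, 65.3 and 54.7 CPM in WT PBS and 76.6, 70.7 and 70.8 CPM in WT LPS, in library order. Those of *Adm*+/- mice were 58.5, 68.2 and 65.9 CPM with PBS and 69.5, 72.9 and 71.4 CPM with LPS. All LPS libraries lay above all PBS libraries of the same genotype, by a small margin. The log2 fold change was 0.23 (SE 0.10) in WT mice, with an adjusted p of 0.12 by edgeR, and 0.15 (SE 0.10) in *Adm*+/- mice, with an adjusted p of 0.278, so neither passed the threshold. These values were 0.142 without WT PBS library 5 and 0.08 without *Adm*+/- PBS library 6.

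Counts of different genes can be set side by side only per length, so levels were divided by kilobases of annotated exon. On this scale *Mat1a* made up 4.85%, 6.45% and 9.15% of the sum of *Mat1a* and *Mat2a* in WT PBS libraries 3, 4 and 5, and 8.86%, 8.23% and 5.43% in WT LPS libraries 9, 10 and 11. The share was 6.55%, 4.65% and 4.73% in *Adm*+/- PBS libraries 6, 7 and 8, and 18.1%, 17.5% and 13.6% in *Adm*+/- LPS libraries 1, 2 and 12. The *Adm*+/- LPS libraries lay above all others, and the remaining groups overlapped one another. The group means were 6.82% ± 2.17 in WT PBS, 7.51% ± 1.83 in WT LPS, 5.31% ± 1.07 in *Adm*+/- PBS and 16.4% ± 2.44 in *Adm*+/- LPS (SD, n = 3). The high WT PBS value of library 5 went with its low *Mat2a* level, not with more *Mat1a*. Even in *Adm*+/- LPS, *Mat2a* exceeded *Mat1a* by 4.52 to 6.33 times per length, compared with 9.93 to 20.5 times in the other groups.

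The sum of both catalytic genes was 30.4 ± 8.24 CPM per kilobase in WT PBS, 37.5 ± 2.90 in WT LPS, 34.2 ± 4.66 in *Adm*+/- PBS and 44.1 ± 2.40 in *Adm*+/- LPS (SD, n = 3). The ratio of *Mat2a* to *Mat2b* was 1.75 to 2.62 in WT PBS, 2.23 to 2.63 in WT LPS, 2.31 to 2.63 in *Adm*+/- PBS and 2.46 to 2.67 in *Adm*+/- LPS, so these ranges overlapped in all groups.

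**Figure D2:**
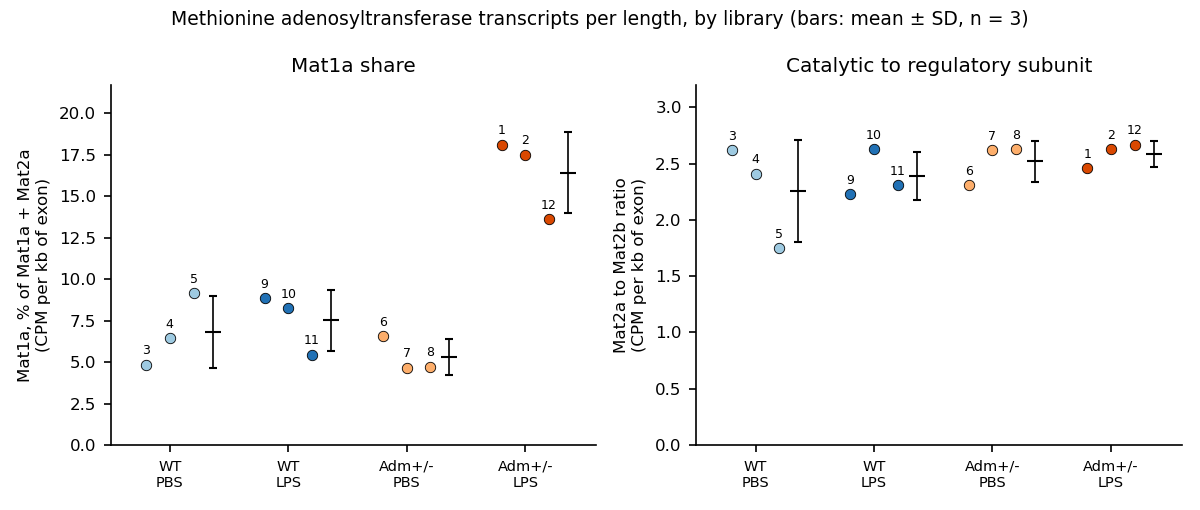
Left, *Mat1a* as a percentage of the sum of *Mat1a* and *Mat2a*, and right, the ratio of *Mat2a* to *Mat2b*, both from CPM per kilobase of exon, by library (points with library numbers) and group (bars, mean ± SD, n = 3). The share is 13.6% to 18.1% in *Adm*+/- LPS and at most 9.15% elsewhere, while the ratio lies between 1.75 and 2.67 in all groups.

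Among the enzymes downstream of SAM, *Gnmt* was the only one of the 6 members tested to pass the threshold in any comparison. *Gnmt* (ENSMUSG00000002769, chr17:46725664-46729168, - strand) encodes glycine N-methyltransferase, which spends SAM on glycine and is known for its abundance in liver. It was low here, at 2.41, 2.48 and 2.04 CPM in WT PBS libraries 3, 4 and 5, and at 3.76, 1.95 and 2.59 CPM in WT LPS libraries 9, 10 and 11. The *Adm*+/- values were 1.68, 1.82 and 1.47 CPM in PBS libraries 6, 7 and 8, and 3.52, 2.93 and 2.67 CPM in LPS libraries 1, 2 and 12, from 32 to 94 counts. The *Adm*+/- groups did not overlap, and the WT groups did.

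*Gnmt* rose with LPS in *Adm*+/- mice by 0.87 (SE 0.25) on the log2 scale, or 1.83-fold (adjusted p = 0.0208, edgeR). In WT mice the log2 fold change was 0.27 (SE 0.25, adjusted p = 0.455), and the difference between the genotypes' responses, 0.60 (SE 0.35), did not pass the threshold either (adjusted p = 0.769). The call was lost without *Adm*+/- PBS library 6 (adjusted p = 0.0572), without *Adm*+/- PBS library 8 (0.0762) and without *Adm*+/- LPS library 1 (0.0819). Between the genotypes *Gnmt* differed by 0.13 under LPS (adjusted p = 0.921) and -0.48 under PBS (adjusted p = 0.999), as log2 values by edgeR. Its *Adm*+/- LPS libraries lay within the range of the WT LPS libraries. *Gm26904*, annotated on the opposite strand across the whole gene, held 0.628 to 2.05 CPM, and whether counting used strand is not given in the sources used here.

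*Ahcy* (ENSMUSG00000027597, chr2:155059310-155074497, - strand) encodes the hydrolase that splits SAH into adenosine and homocysteine. Its levels were 26.0, 33.1 and 40.8 CPM in WT PBS libraries 3, 4 and 5, and 40.9, 37.3 and 26.4 CPM in WT LPS libraries 9, 10 and 11. In *Adm*+/- mice they were 34.98, 24.9 and 22.5 CPM in PBS libraries 6, 7 and 8, and 43.5, 36.4 and 37.9 CPM in LPS libraries 1, 2 and 12. Within each PBS group *Ahcy* was highest in the library with a low share of protein-coding counts, the opposite of *Mat2a*, and the *Adm*+/- groups were apart only by the gap between 34.98 and 36.4 CPM. The log2 fold change with LPS was 0.07 (SE 0.21, adjusted p = 0.836) in WT and 0.52 (SE 0.21, adjusted p = 0.0873) in *Adm*+/- mice by edgeR. Without WT PBS library 5 and *Adm*+/- PBS library 6 the *Adm*+/- value was 0.73 and passed the threshold (adjusted p = 0.0125), as it did in a fit of the *Adm*+/- libraries alone (0.52, adjusted p = 0.0366). *Ahcy* also passed without *Adm*+/- PBS library 6 alone (0.72, adjusted p = 0.0336), where *Gnmt* lost its call, and without WT PBS library 5 alone (0.53, adjusted p = 0.0483).

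*Mtr* (ENSMUSG00000021311, chr13:12182712-12258113, - strand) encodes methionine synthase, which passes a folate-borne methyl group to homocysteine. It was measured at 72.7, 76.4 and 66.1 CPM in WT PBS and 68.6, 69.7 and 77.8 CPM in WT LPS, in library order, and at 68.9, 67.3 and 76.7 CPM in *Adm*+/- PBS. In *Adm*+/- LPS libraries 1, 2 and 12 it was at 64.5, 58.7 and 61.8 CPM, below every library of the other groups. The log2 fold change with LPS was 0.01 (SE 0.10, adjusted p = 0.971) in WT and -0.20 (SE 0.10, adjusted p = 0.132) in *Adm*+/- mice, and the genotypes differed by -0.22 (SE 0.10, adjusted p = 0.307) under LPS, all by edgeR and none past the threshold.

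*Cbs* (ENSMUSG00000024039, chr17:31608894-31637238, - strand) encodes cystathionine beta-synthase, which commits homocysteine to transsulfuration. It was the lowest member, with 22 to 67 counts per library. The levels were 1.28, 1.70 and 2.35 CPM in WT PBS, 2.06, 1.70 and 1.87 CPM in WT LPS, 1.16, 1.18 and 1.11 CPM in *Adm*+/- PBS and 1.76, 1.17 and 1.10 CPM in *Adm*+/- LPS, in library order. All *Adm*+/- PBS libraries were below all WT PBS libraries, but the log2 difference of -0.61 (SE 0.27) did not pass the threshold (adjusted p = 0.999, edgeR). With LPS the log2 fold change was 0.10 (95% CI -0.47 to 0.68) in WT and 0.22 (95% CI -0.37 to 0.82) in *Adm*+/- mice, so changes of the size seen for *Gnmt* lie near or beyond these limits and smaller ones could not be resolved with these libraries.

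**Figure D3:**
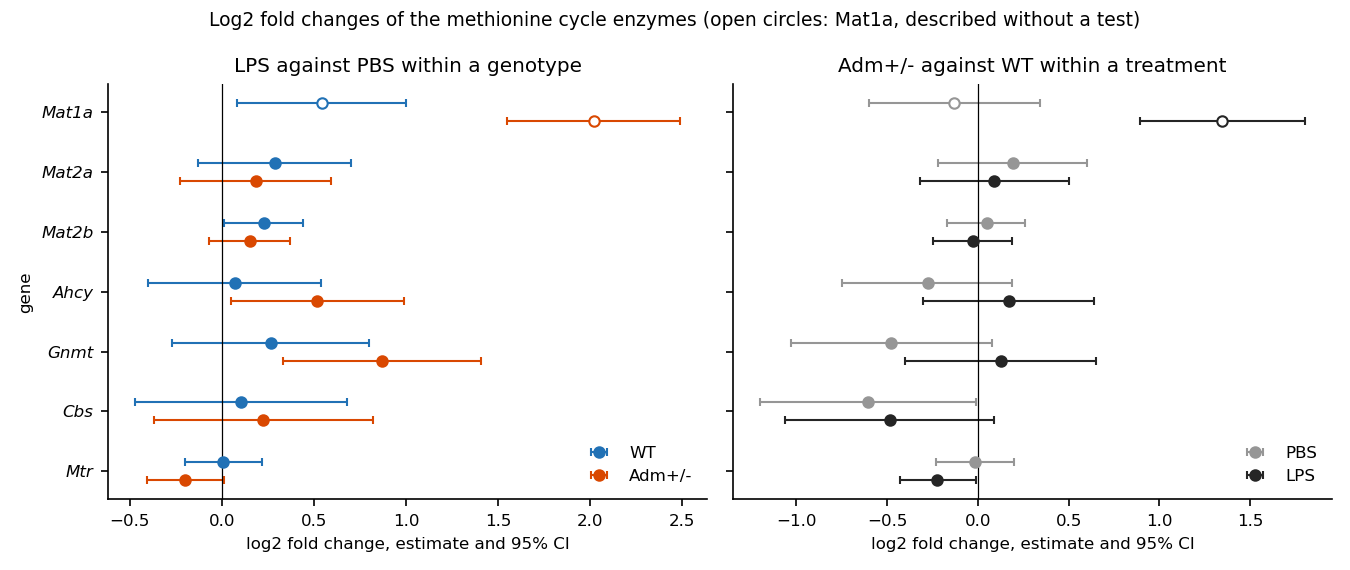
Log2 fold change (horizontal axis, point estimate with 95% CI) of each methionine cycle enzyme for LPS against PBS in each genotype (left) and for *Adm*+/- against WT in each treatment (right), with open circles for *Mat1a*, which was described without a test. *Gnmt* at 0.87 in *Adm*+/- mice was the only one of the 6 members tested to pass the threshold.

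Of the 6 members other than *Mat1a*, 1 was called in the *Adm*+/- response to LPS, upwards, against 25% of all tested genes, of which 12.8% were higher and 12.2% lower. In WT mice 0 of 6 were called against a background of 17.6% (10.5% higher and 7.09% lower), in the difference between genotypes 0 of 6 against 0.145%, in *Adm*+/- against WT under LPS 0 of 6 against 2.05% (0.327% higher and 1.72% lower), and under PBS 0 of 6 against 0%, all by edgeR with Benjamini-Hochberg adjustment. DESeq2 and limma-voom also called 0 in these comparisons. Without adjustment, 1 member was below a p of 0.05 by edgeR in the WT response (*Mat2b*, beside 36.7% of all tested genes), 2 in the *Adm*+/- response (*Gnmt* and *Ahcy*, beside 41.8%), 1 between genotypes under LPS (*Mtr*, beside 14.3%), 1 between genotypes under PBS (*Cbs*, beside 2.17%) and 0 in the difference between genotypes (beside 7.85%). The libraries of the groups compared did not overlap for 4 of the 6 members in the *Adm*+/- response, where 53.7% of all tested genes did not overlap, and for 1 of 6 in the WT response, where the background was 36.2%. They did not overlap for 1 of 6 between genotypes under LPS (background 24.6%) and for 2 of 6 under PBS (background 4.99%), namely *Gnmt* and *Cbs*, both lower in *Adm*+/- mice. The median log2 fold change of the 6 was 0.16 in WT and 0.20 in *Adm*+/- mice, beside 0.01 and -0.01 for all tested genes.

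Ordered by level per kilobase of exon, *Mat2a* came first in every group, followed by *Mat2b* and *Ahcy*, whose libraries overlapped in all 4 groups. In WT PBS the means were 28.4 for *Mat2a*, 12.4 for *Mat2b*, 11.9 for *Ahcy*, 8.42 for *Mtr*, 1.95 for *Mat1a*, 1.91 for *Gnmt* and 0.237 CPM per kilobase for *Cbs*, and *Mat1a* and *Gnmt* overlapped. WT LPS had the same order, again with *Mat1a* (2.84 ± 0.83, SD, n = 3) overlapping *Gnmt*. In *Adm*+/- LPS *Mat1a* moved past *Mtr* in rank, with a mean of 7.24 CPM per kilobase for both (SD 1.10 and 0.34, n = 3) and overlapping libraries. *Cbs* was last in every group and overlapped no other member.

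*Mat1a* lies next to the genes of the lung collectins, proteins that bind microbial sugars in the surfactant film, so its neighbourhood was read as well. Within 150 kb of either end of *Mat1a* the annotation places 12 genes, of which 7 were tested and 5 were not, being non-coding. *Sftpa1* and *Sftpd* encode surfactant proteins A and D, made by type II pneumocytes, and *Mbl1* a mannose-binding lectin known from liver. In *Adm*+/- mice 3 of the 7 were called higher with LPS and 1 lower, and in WT mice only *Sftpd* was called, by edgeR, beside 12.8% higher and 12.2% lower in *Adm*+/- and 17.6% called in WT mice among all tested genes. On the other side of *Mat1a*, *Tspan14*, *Dydc1* and *Dydc2* were not called in either genotype.

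*Sftpd*, 47.8 kb past the end of *Mat1a*, was measured at 161, 180 and 251 CPM in WT PBS and 378, 306 and 310 CPM in WT LPS, and at 195, 155 and 142 CPM in *Adm*+/- PBS and 575, 408 and 450 CPM in *Adm*+/- LPS, in library order. All LPS libraries exceeded all PBS libraries. The log2 fold change was 1.54 (SE 0.19, adjusted p = 0.000217) in *Adm*+/- and 0.75 (SE 0.19, adjusted p = 0.0181) in WT mice by edgeR, and the WT call was lost in a fit of the WT libraries alone (adjusted p = 0.0555).

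*Mbl1*, 27.0 kb past the end, was low, at 1.90 to 2.78 CPM in WT PBS, 2.79 to 3.45 in WT LPS, 1.99 to 2.21 in *Adm*+/- PBS and 3.49 to 6.69 in *Adm*+/- LPS. In *Adm*+/- mice *Mbl1* rose by 1.24, as a log2 value (SE 0.25, adjusted p = 0.00316, edgeR), and the WT value was 0.33 (adjusted p = 0.363). *Sftpa1*, 7.4 kb past the end, rose by 0.71 in *Adm*+/- mice (SE 0.21, adjusted p = 0.0263), beside 0.31 in WT (adjusted p = 0.317). *Fam213a*, on the other side at 91.2 kb, fell by 0.66 in *Adm*+/- mice (adjusted p = 0.0267), beside -0.29 in WT (adjusted p = 0.306). None of these genes differed between the genotypes' responses by edgeR, with log2 differences of 0.91 for *Mbl1* (adjusted p = 0.514), 0.79 for *Sftpd* (adjusted p = 0.447) and 0.40 for *Sftpa1* (adjusted p = 0.884). Of the 12 type II pneumocyte markers, which include *Sftpa1* and *Sftpd*, 4 were called higher and 2 lower in *Adm*+/- mice, beside the same 12.8% and 12.2%.

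**Figure D4:**
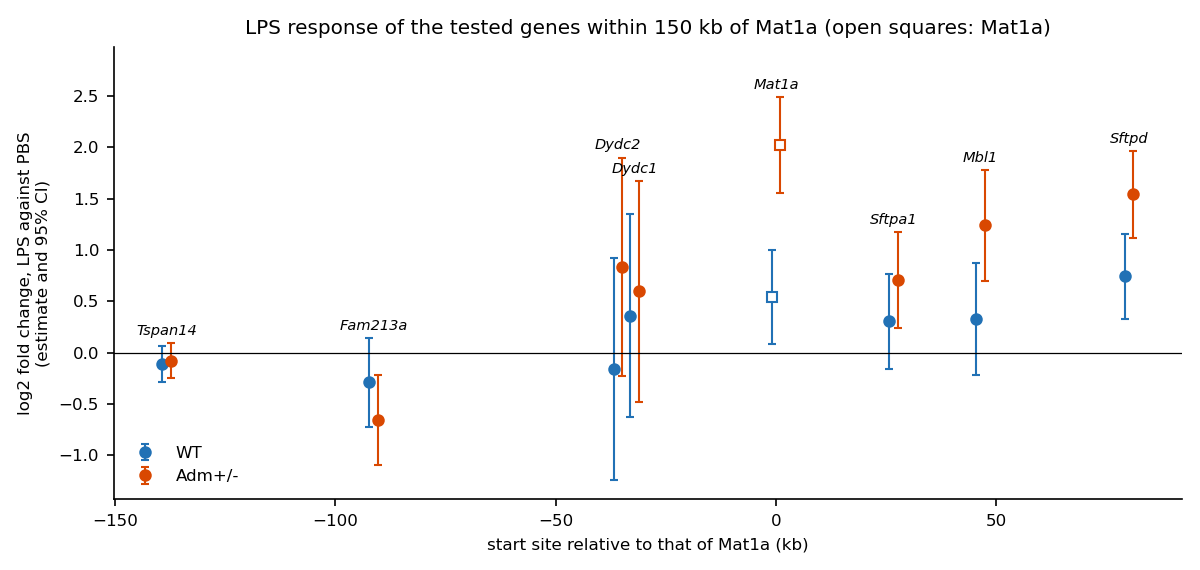
Log2 fold change with LPS (vertical axis, estimate with 95% CI) in WT and *Adm*+/- mice of the 7 tested genes within 150 kb of *Mat1a*, against the distance of their start site from that of *Mat1a* in kb. *Sftpd* at 1.54 and *Mbl1* at 1.24 in *Adm*+/- mice have the highest values among the neighbours, and *Mat1a* (open squares) is at 2.02.

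The reactions around the cycle were covered by 8 lists with 80 genes, of which 77 were tested. In WT mice 13 of 77 (16.9%) were called with LPS, 6 higher and 7 lower, and in *Adm*+/- mice 26 of 77 (33.8%), 13 higher and 13 lower, beside 17.6% and 25% of all tested genes (10.5% higher and 7.09% lower in WT, 12.8% higher and 12.2% lower in *Adm*+/- mice). The counts of each list stand against these same shares. In the difference between genotypes 0 of 77 were called by edgeR and 2 by DESeq2 (*Gclc*, 1.83, and *Gamt*, -1.11, on the log2 scale), which called 1.06% of all tested genes. There limma-voom called 0, and 10 of 77 were below an unadjusted p of 0.05 by edgeR, beside 7.85% of all tested genes. Under LPS 3 of 77 (3.90%) differed between the genotypes by edgeR, beside 2.05% of all tested genes. DESeq2 called 6 of 77 and limma-voom 4, beside 5.06% and 1.79% of all tested genes. Without any 1 of *Adm*+/- LPS libraries 1, 2 and 12 edgeR called 0 of 77. In those fits edgeR called 81, 86 and 89 of all tested genes, respectively, beside 325 with all libraries. Under PBS 0 of 77 were called by edgeR, DESeq2 or limma-voom, with 2 below an unadjusted p of 0.05 by edgeR, beside 2.17% of all tested genes.

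Transport brings methionine into cells, and of its 7 tested genes 4 were called in *Adm*+/- mice and 2 in WT mice (*Slc7a5* and *Slc43a2*, both also called in *Adm*+/- mice), all higher, by edgeR. *Slc7a5*, the light chain of a carrier of large neutral amino acids, rose by 1.49 in *Adm*+/- mice (SE 0.21, adjusted p = 0.000426) and by 1.22 in WT mice (SE 0.21, adjusted p = 0.0027) on the log2 scale by edgeR. Its heavy chain *Slc3a2* rose by 0.83 (adjusted p = 0.000605), and the related light chain *Slc7a6* by 0.89 (adjusted p = 0.000922), in *Adm*+/- mice, beside 0.25 and 0.27 in WT mice, which were not called (adjusted p = 0.17 and 0.187). *Slc7a5* went from 13.1 to 19.8 CPM in WT PBS to 26.4 to 46.4 in WT LPS, and from 13.2 to 17.0 in *Adm*+/- PBS to 40.4 to 47.7 in *Adm*+/- LPS.

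Remethylation, the return of homocysteine to methionine, had 0 of 7 tested genes called by edgeR or limma-voom in any comparison. For the LPS response 2 were below an unadjusted p of 0.05 by edgeR in WT and 3 in *Adm*+/- mice, beside 36.7% and 41.8% of all tested genes. DESeq2 called 1, *Cd320*, a receptor for vitamin B12 on its carrier, which had a log2 fold change of -0.58 in WT mice by both tools (adjusted p = 0.0213 by DESeq2 and 0.0507 by edgeR). Among 15 tested genes of folate one-carbon metabolism, 2 were lower in WT mice, and 4 were lower and 1 higher in *Adm*+/- mice. *Mthfd1*, which interconverts one-carbon folates, fell by 0.82 in *Adm*+/- mice (adjusted p = 0.000181), beside -0.34 in WT mice, which was below the fold threshold (adjusted p = 0.0315). *Tyms*, thymidylate synthase, fell by 0.86 in *Adm*+/- mice (adjusted p = 0.00959) and by 0.80 in WT mice (adjusted p = 0.0204). *Sardh*, which breaks down the sarcosine made by *Gnmt*, fell by 0.91 (adjusted p = 0.0179) and 1.15 (adjusted p = 0.00892), respectively. The summed level of 12 proliferation genes was 1100 to 1280 CPM in the PBS groups and 577 to 1130 CPM in the LPS groups, and its part in the lower folate genes was not tested.

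In the list of transsulfuration, glutathione and hydrogen sulfide, 7 of 11 tested genes were called in *Adm*+/- mice, 4 higher and 3 lower, and 2 of 11 in WT mice, 1 in each direction. *Gclc*, the catalytic subunit of the enzyme that starts glutathione synthesis, was measured at 75.7, 114 and 86.0 CPM in WT PBS, 231, 228 and 89.0 CPM in WT LPS, 87.4, 78.2 and 66.0 CPM in *Adm*+/- PBS and 436, 653 and 535 CPM in *Adm*+/- LPS, in library order. The *Adm*+/- LPS libraries stood above all others, and WT LPS library 11 was within the range of the PBS libraries, as it was for *Mat1a*. *Gclc* rose by 2.81 in *Adm*+/- mice (SE 0.33, adjusted p = 0.000143) and was higher by 1.57 in *Adm*+/- than in WT mice under LPS (SE 0.31, adjusted p = 0.0272, edgeR). That difference lost its call in a fit of the LPS libraries alone (adjusted p = 0.0772) and without *Adm*+/- LPS library 1 (0.0655), 2 (0.135) or 12 (0.0953). The WT value of *Gclc*, 0.99, was called (adjusted p = 0.0411, edgeR), but not by limma-voom (adjusted p = 0.0717), nor in 9 of the 12 fits that left out a library. The value ranged from 0.78 to 0.99 in those 9 fits and was highest, at 1.32, without WT LPS library 11, where the call was kept. *Cth*, the enzyme after *Cbs*, rose by 1.24 in *Adm*+/- mice (adjusted p = 0.0297), beside 0.65 in WT mice (adjusted p = 0.235). *Cdo1*, cysteine dioxygenase, rose by 0.64 (adjusted p = 0.00255) and *Ethe1*, which oxidises sulfide products, fell by 1.02 (adjusted p = 0.00136) in *Adm*+/- mice.

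Among the enzymes that spend SAM, the small-molecule methyltransferases had 3 of 8 genes called in *Adm*+/- mice, 1 higher and 2 lower, and 2 of 8 in WT mice (*Inmt* and *Tpmt*), 1 in each direction, by edgeR. *Gamt*, which makes creatine, fell by 1.24 in *Adm*+/- mice (SE 0.17, adjusted p = 0.000384), beside -0.12 in WT mice (adjusted p = 0.631), and its log2 difference between *Adm*+/- and WT mice under LPS was -0.98 (adjusted p = 0.0151, edgeR), a call lost without *Adm*+/- LPS library 1 (0.0551), 2 (0.0895) or 12 (0.0862). Its levels were 6.38 to 9.40 CPM in WT LPS and 3.64 to 4.23 CPM in *Adm*+/- LPS, without overlap. Skeletal muscle genes were also higher in WT LPS, as given above, and their part in the *Gamt* difference was not tested. *Inmt*, an amine methyltransferase, rose by 2.67 in WT, with an adjusted p of 0.00981, and by 2.08 among *Adm*+/- mice (0.0206), with wide spreads of 15.9 to 69.5 and 7.46 to 37.7 CPM in the LPS groups. The *Adm*+/- call of *Inmt* was lost with limma-voom (1.79, adjusted p = 0.0955). *Tpmt*, thiopurine methyltransferase, fell by 0.64 (adjusted p = 0.0261) and 0.57 (adjusted p = 0.0312).

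Of 10 methyltransferases of DNA, RNA and histones, 3 were called with LPS in WT and 2 in *Adm*+/- mice by edgeR, all of them lower and all acting on DNA. *Dnmt1*, which copies methylation after replication, fell by 0.73 in both genotypes (adjusted p = 0.0117 in WT and 0.00785 in *Adm*+/-). *Dnmt3a* fell by 0.65 in WT, with an adjusted p of 0.0234, and by 0.64 among *Adm*+/- mice (0.0173), and *Dnmt3b* by 0.62 in WT mice (adjusted p = 0.0173), beside -0.41 in *Adm*+/- mice (adjusted p = 0.0609). WT PBS library 5 carried much of the *Dnmt3a* value in WT mice, which was -0.40 without it, below the fold threshold, so that the call ended. All 12 proliferation genes had a lower fitted level with LPS in both genotypes. Their median log2 fold change was -0.72 in WT and -0.55 in *Adm*+/- mice, beside 0.01 and -0.01 for all tested genes. Of the 12, 2 (*Mcm2* and *Mcm5*) were called lower in each genotype by edgeR, beside 7.09% of all tested genes in WT and 12.2% in *Adm*+/- mice. The part of proliferation in the lower DNA methyltransferase genes was not tested.

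For SAH and adenosine, next to *Ahcy*, 2 of 4 genes were called in *Adm*+/- mice and 0 of 4 in WT mice by edgeR, DESeq2 or limma-voom. In WT mice 1 was below an unadjusted p of 0.05 by edgeR, beside 36.7% of all tested genes. *Adk*, adenosine kinase, fell by 0.61 (adjusted p = 0.000412), beside -0.46 in WT (adjusted p = 0.00418), which was below the fold threshold, and *Ada*, adenosine deaminase, rose by 0.66 (adjusted p = 0.0183), beside 0.12 in WT (adjusted p = 0.658). Of 15 genes of polyamine synthesis and methionine salvage, 2 were higher in WT mice, and 2 were higher and 1 lower in *Adm*+/- mice. *Sat1*, which acetylates polyamines, rose by 0.86 in *Adm*+/- (adjusted p = 0.0023) and 0.72 in WT mice (adjusted p = 0.0103), and *Sms*, spermine synthase, rose by 0.70 in WT mice (adjusted p = 0.00213), beside 0.44 in *Adm*+/- mice, below the fold threshold. *Adi1*, a dioxygenase of methionine salvage, fell by 0.92 in *Adm*+/- mice (adjusted p = 0.000216), and its level under LPS was 9.76 to 11.6 CPM in *Adm*+/- and 14.7 to 17.6 CPM in WT mice, a log2 difference of -0.58 (adjusted p = 0.0281, edgeR), which was not called in a fit of the LPS libraries alone (0.0744) or in 5 of the 12 fits that left out a library.

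**Figure D5:**
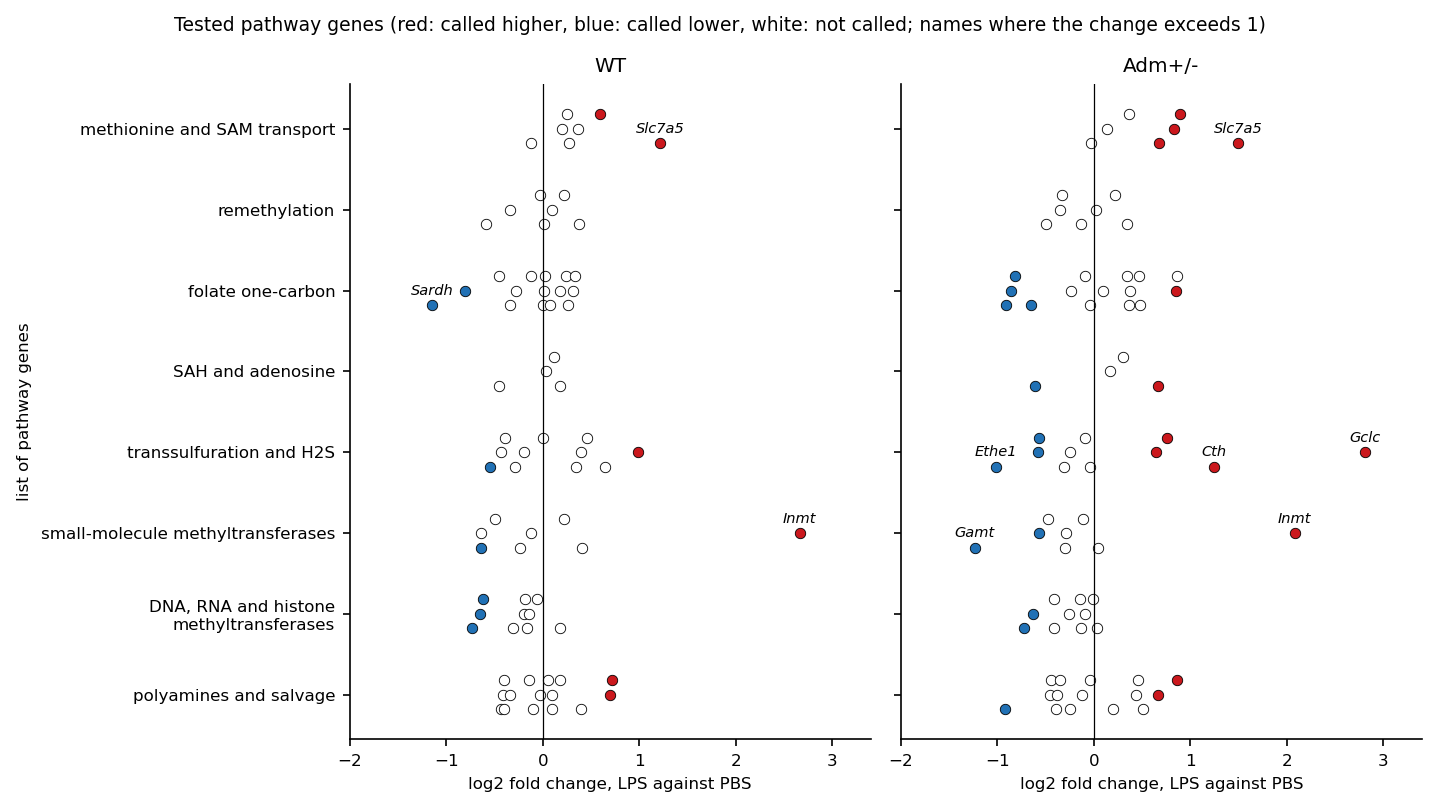
Log2 fold change with LPS (horizontal axis) of the 77 tested pathway genes by list, in WT (left) and *Adm*+/- mice (right), with filled points for called genes. In *Adm*+/- mice 13 genes are called higher and 13 lower, from *Gclc* at 2.81 down to *Gamt* at -1.24.

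Over the 12 libraries and 15885 tested genes, the 5 genes whose log2 CPM followed that of *Mat1a* most closely by Pearson's r were *Cx3cl1* (0.989), *Gclc* (0.984), *Synpo* (0.983), *Rela* (0.978) and *Hivep2* (0.977). The 12 points are those of 4 groups and share their libraries, so these values describe likeness and carry no p. *Cx3cl1*, which encodes a chemokine, was at 38.9, 45.5 and 34.7 CPM in *Adm*+/- LPS libraries 1, 2 and 12, at 23.2, 25.0 and 16.0 CPM in WT LPS libraries 9, 10 and 11, and at 15.0 to 18.3 CPM in the PBS libraries. *Rela*, a subunit of NF-kappa B, was at 112 to 125 CPM in *Adm*+/- LPS, 72.0 to 98.3 in WT LPS and 69.6 to 79.1 with PBS. By Spearman's rho the 5 closest genes were others, led by *Slc39a1* (0.979).

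Within the set, *Mat1a* went with *Ahcy* (r = 0.65, rho = 0.80) and *Gnmt* (r = 0.66, rho = 0.71) and against *Mtr* (r = -0.77, rho = -0.68) over the same 12 libraries. *Mat2a* went with *Mat2b* (r = 0.87, rho = 0.62), and both were low in WT PBS library 5 and *Adm*+/- PBS library 6. *Mat1a* and *Mat2a* were only loosely related (r = 0.43, rho = 0.31).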

How the data were processed

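Per the labels and the methods, the authors trimmed reads with Trim Galore, aligned them to mm10 with HISAT2 and used featureCounts to count reads per Gencode gene, from libraries of a directional kit. The authors deposited raw counts, without normalization or filter, of 52550 genes in 12 libraries. The strand option and the Gencode release are not given in the sources used here. Libraries are named by the number in their titles. Nothing in the labels tells more of the animals than that the lungs were separate, so p-values measure the spread between these libraries. No pair of libraries of a group held identical counts.

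In R 4.3.3, protein-coding genes passing edgeR's filterByExpr (15885 of 21950, 72.4%) were scaled by TMM and fitted with edgeR 4.0.16 (glmQLFit, glmQLFTest, two-sided) with 1 coefficient per group and 8 residual degrees of freedom. Calls required a Benjamini-Hochberg adjusted p below 0.05 over all tested genes and an absolute log2 fold change above 0.5. CPM are TMM-scaled counts, the SE was derived from the F statistic, and correlations used log2 CPM with a prior count of 2. Positions, exon lengths and sequences came from Gencode M21 and mm10, where 52403 genes (99.7%) were found. Reads carry no molecular identifiers, so counting precision covers counting error only.

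The members and gene lists were chosen with earlier results of these data known. Genes named were the members, *Adm*, tested neighbours of *Mat1a*, up to 3 called genes of smallest p per list (or the most abundant where none was called) with any gene called between genotypes, the 5 most like *Mat1a*, and *Alb* and *Cps1*. A gene that this rule names is not reported here. *Cth*, *Cd320*, *Slc43a2*, other called hepatocyte and proliferation genes, the genes most like *Mat1a* by rho and those called by DESeq2 alone were named after their values were seen. Alternatives were RLE size factors, DESeq2 1.42.0, limma-voom (limma 3.58.1), other filters and gene sets, fits of only the libraries compared, no fold threshold, each library left out, and both low protein-coding libraries left out. The scripts were tested on simulated data.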

Additional observations from a re-analysis of the deposited data

How the results depend on the processing

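The labels give no litter or other match between libraries of different groups, so no paired analysis was run. Left out in turn, the 12 libraries gave 0 to 2 members called in the *Adm*+/- response (0 without *Adm*+/- PBS library 8 or *Adm*+/- LPS library 1, and 2, with *Ahcy* added, without WT PBS library 5; without *Adm*+/- PBS library 6 the 1 called was *Ahcy* and not *Gnmt*), 5 to 15 pathway genes in WT (5 without WT LPS library 9), 17 to 27 in *Adm*+/- mice and 0 to 5 between genotypes under LPS (0 without any 1 of *Adm*+/- LPS libraries 1, 2 and 12, and 5 without WT PBS library 5 or WT LPS library 10), and 0 members or pathway genes in the other comparisons. In the same fits the calls among all 15995 to 16116 tested genes were 1443 (without WT LPS library 9) to 3074 in WT and 3033 to 4503 in *Adm*+/- mice. Between genotypes under LPS they were 81 to 573, with 81, 86 and 89 without *Adm*+/- LPS library 1, 2 and 12. With all libraries 2791, 3968 and 325 of 15885 were called in these comparisons. With single libraries left out, the *Mat1a* share ranged over 5.65% to 7.80% in WT PBS, 6.83% to 8.54% in WT LPS, 4.69% to 5.64% in *Adm*+/- PBS and 15.6% to 17.8% in *Adm*+/- LPS. With the length of the longest coding transcript, an alternative chosen after seeing the data, the share was 4.06% in *Adm*+/- PBS and 12.9% in *Adm*+/- LPS. The planned length from the deposited table was not run, because the count table has no length column.

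Fits of only the libraries compared called 6 pathway genes in WT, 2 members in *Adm*+/- mice and 1 pathway gene between genotypes under LPS. Of all genes tested in those fits, 1152 of 15591, 4527 of 15510 and 245 of 15690 were called, respectively. With all libraries these were 2791, 3968 and 325 of 15885. Without WT PBS library 5 and *Adm*+/- PBS library 6, 2 members were called in *Adm*+/- mice and 6 pathway genes between genotypes under LPS. Of all 16100 genes tested in that fit, 3921 and 548 were called, respectively. DESeq2 called 2 pathway genes in the difference and 6 between genotypes under LPS, beside 1.06% and 5.06% of all tested genes. Cause was not tested in any of these cases.

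No value whose direction turned was called, and the largest of them with all libraries was 0.265, for *Gnmt* in WT. Without both of those libraries, *Mtr* in WT was -0.052 (-0.02 with all annotated genes), *Mat2a* in the difference 0.003 and *Cbs* in the difference -0.113. Leaving out single libraries gave ranges across 0 for *Ahcy* (-0.084 to 0.238), *Gnmt* (-0.032 to 0.458), *Cbs* (-0.098 to 0.341) and *Mtr* (-0.055 to 0.052) in WT, *Cbs* in *Adm*+/- mice (-0.017 to 0.349), *Mat2a* (-0.272 to 0.122), *Mat2b* (-0.142 to 0.013) and *Cbs* (-0.116 to 0.321) in the difference, *Mat2b* (-0.049 to 0.014) and *Gnmt* (-0.066 to 0.424) between genotypes under LPS, and *Mat2a* (-0.025 to 0.361), *Mat2b* (-0.033 to 0.111) and *Mtr* (-0.074 to 0.033) under PBS. None of the 5 genes most like *Mat1a* by Pearson's r was among the 5 by Spearman's rho (0 shared).

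Calls of single genes were also lost when 1 library was left out, with the highest edgeR adjusted p in brackets. The log2 fold change kept its direction in all 65 such fits and was 0.623 to 1.13 times that with all libraries. In the *Adm*+/- response they were lost for *Sardh* without library 1, 6 or 12 (0.0687), *Ada* without 2, 6, 8 or 12 (0.0724), *Inmt* without 1, 6, 7, 8 or 12 (0.0801), *Tpmt* without 1, 2, 7, 8 or 12 (0.114), *Dnmt3a* without 2, 6 or 12 (0.0603), *Fam213a* without 1, 2, 6, 7 or 12 (0.0824) and *Sftpa1* without 1, 7, 8 or 12 (0.0969). In WT the calls of *Tyms* (0.0945), *Dnmt1* (0.0601), *Dnmt3a* (0.103), *Dnmt3b* (0.0631) and *Sat1* (0.0552) were lost without library 9, that of *Dnmt3a* also without library 5, *Tpmt* without 3, 9, 10 or 11 (0.073) and *Sftpd* without 3, 4 or 9 (0.0849). Between genotypes under LPS, *Gclc* (0.135) and *Gamt* (0.0895) were lost without library 1, 2 or 12, and *Adi1* without 1, 2, 7, 11 or 12 (0.138). Fits of only the libraries compared also lost the WT calls of *Sardh*, *Gclc*, *Tpmt*, *Dnmt3a*, *Dnmt3b*, *Sat1* and *Sftpd* (adjusted p = 0.0528 to 0.127) and those of *Gclc* (0.0772) and *Adi1* (0.0744) between genotypes under LPS.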
